A study of Mus musculus with 6 samples.

Results

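Expression of 10 genes of interleukin-6 (IL-6) family signaling was compared between AML blasts with and without *Tet2* in mice whose blasts carry *Cebpa* mutations. The genes were taken by symbol, as receptor chains and a ligand (*Il6ra*, *Il6st* and *Osm*), inhibitors of the SOCS family (*Socs1*, *Socs2*, *Socs3* and *Cish*), and PIM kinases and BCL6 (*Pim1*, *Pim2* and *Bcl6*). They are 10 of the 53458 genes of the GENCODE M21 annotation that had transcripts in the data, and all 10 were among the 22170 genes abundant enough to be tested. The samples were 3 *Cebpa*-/p30 *Tet2*+/+ (s19, s23 and s24) and 3 *Cebpa*-/p30 *Tet2*-/- AML samples (s5, s7 and s8), 1 library each, labeled as biological replicates of strain C57BL/6.

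Both genotypes share a deleted *Cebpa* allele and a second allele that makes only the truncated C/EBPα isoform p30, so neither group has an intact *Cebpa* gene, and they differ in the deletion of *Tet2*. Per the methods, floxed *Cebpa* and *Tet2* alleles were recombined by *Mx1-Cre*, which is induced by interferon and therefore by poly(I:C), after donor bone marrow was transplanted into irradiated recipients aged 10 to 12 weeks. *Mx1-Cre* is active across blood cell types and is not restricted to AML cells. Marrow of moribund recipients was frozen, thawed and sorted for live donor CD45.2+ cells without CD3, B220 or Ter119, a gate that removes most lymphoid and erythroid cells but keeps every myeloid stage. The age of each mouse at sampling is not given in the sources used here.

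IL-6 family cytokines bind a specific receptor chain and signal through gp130, encoded by *Il6st*, whose associated JAK kinases phosphorylate STAT factors, above all STAT3. STAT3 and STAT5 then induce their own inhibitors, the SOCS proteins and CIS (encoded by *Cish*), and genes for survival and growth such as the PIM kinases, so transcripts of these targets are often read as a record of recent cytokine signaling. In bone marrow the same inhibitors also restrain signaling by G-CSF, GM-CSF and other hematopoietic cytokines.

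The libraries held between 13036643 and 32855343 estimated reads, with the largest in s5, and the biological coefficient of variation (BCV, the relative spread between samples of a genotype beyond counting noise) was 43.6% over all genes. Levels are given as CPM (reads per 1000000 reads) after TMM normalization. *Tet2* itself had 73.6, 79.5 and 98.4 CPM in s19, s23 and s24 and 111, 79.4 and 96.7 CPM in s5, s7 and s8, so whole-gene counts did not show its deletion, and the position of the deleted part was not examined here. All 8 markers of blasts and granulocyte progenitors (such as *Kit*, *Mpo* and *Elane*) were detected, at a summed 6677 to 8842 CPM. The 10 markers of mature neutrophils summed to between 10700 and 55731 CPM in *Tet2*+/+ samples and between 23977 and 114161 CPM in *Tet2*-/- samples, highest in s7 and lowest in s23. The 10 markers of monocytes and macrophages summed to 1732 to 3440 CPM and 2504 to 5504 CPM, highest in s8 and lowest in s24. No marker of these 2 lists was at 0 in any sample. Among markers of cells outside the gate, 8 of 9 erythroid markers were tested. They summed to 146 CPM in s19 and to 6.13 to 15.3 CPM in the other 5 samples, and 8 B cell markers summed to 23.1 to 83.3 CPM. The 9 T and NK cell markers summed to 59.6 to 132 CPM, but this list is only partly outside the gate, which does not select against NK cells.

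None of the 10 genes passed the test for a difference between genotypes. With edgeR's quasi-likelihood test and Benjamini-Hochberg adjustment over all genes tested, 0 of 10 passed an adjusted p of 0.05, and their edgeR adjusted p ranged from 0.665 to 0.993. The background was low, since 0.0451% of all genes tested (10 genes, all lower in *Tet2*-/-) passed. At an unadjusted p of 0.05, 0 of the 10 genes passed with edgeR against 8.11% of all genes tested (5.12% lower and 3% higher in *Tet2*-/-), and 0 of 10 passed an adjusted p of 0.05 with DESeq2, which called 2.16% of its genes. The values of the 2 genotypes were separate for 0 of the 10 genes, beside 16% of genes averaging 1 CPM or more. The log2 fold change (*Tet2*-/- over *Tet2*+/+) was above 0 for 7 of 10 genes, beside 55.7% of genes averaging 1 CPM or more, and the median was 0.27, beside 0.05 over those genes. With 3 samples against 3, the smallest p of a two-sided exact permutation test is 0.1. The samples are different mice, and fewer cells of a type and less RNA per cell cannot be told apart in such bulk libraries.

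**Figure D1:**
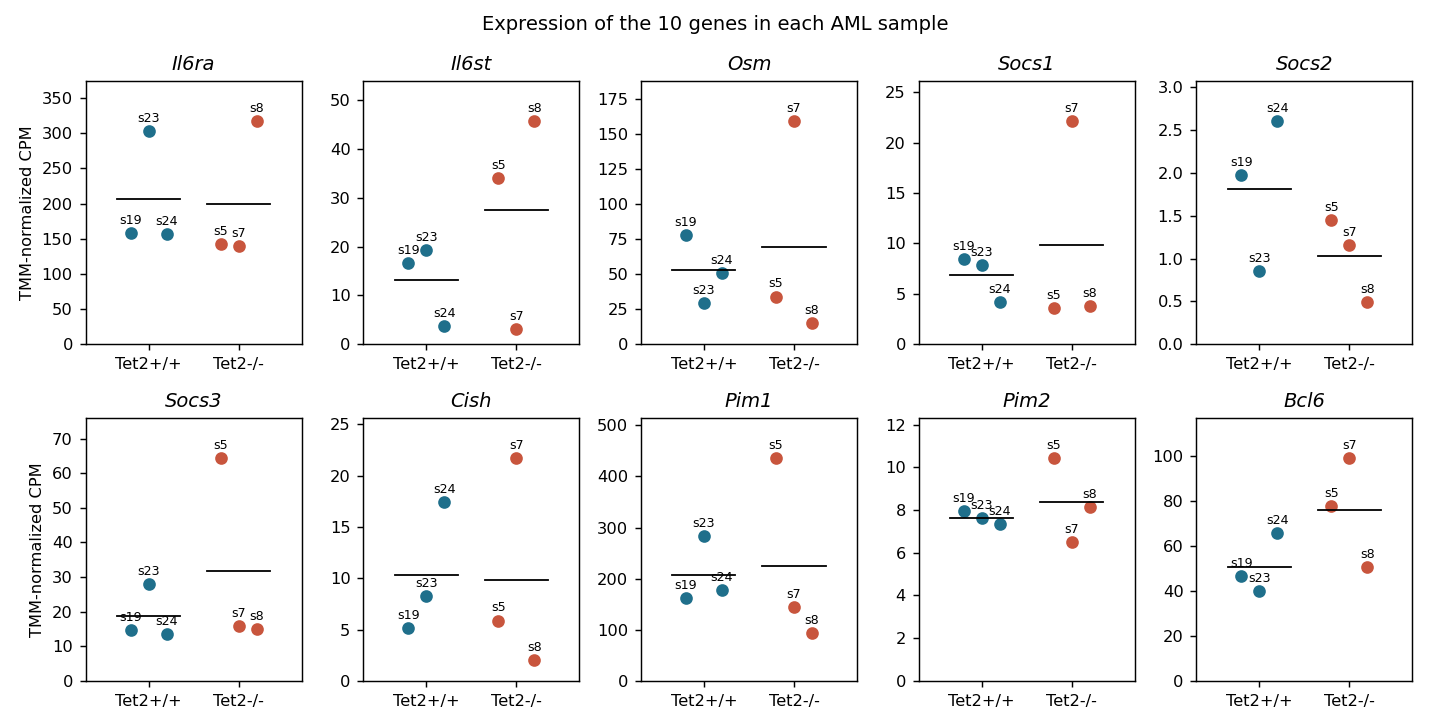
TMM-normalized CPM of the 10 genes (vertical axes from 0, a scale for each gene) in each of 3 *Tet2*+/+ and 3 *Tet2*-/- samples, with the mean of a genotype as a line and n = 3. The genotypes overlap for every gene, s7 is highest for *Osm*, *Socs1*, *Cish* and *Bcl6*, s5 for *Socs3*, *Pim1* and *Pim2*, and s8 for *Il6ra* and *Il6st*.

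*Il6ra* encodes the chain that binds IL-6 (ENSMUSG00000027947, chromosome 3 of GRCm38 from 89864059 to 89913196, minus strand). It had 159, 303 and 157 CPM in s19, s23 and s24, and 142, 139 and 317 CPM in s5, s7 and s8. 1 sample of each genotype, s23 and s8, stood at about the same high level and the other 4 lay close together below it. The means were 206 ± 83.9 CPM (SD, n = 3) in *Tet2*+/+ and 200 ± 102 CPM (SD, n = 3) in *Tet2*-/- samples, with a log2 fold change of -0.05 (SE 0.41, edgeR adjusted p = 0.988). The sign of this value turned with 1 sample, from -0.55 without s8 to 0.32 without s23.

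*Il6st* encodes gp130, the signaling chain shared by the whole cytokine family (ENSMUSG00000021756, chromosome 13 from 112464070 to 112510086, plus strand). It showed the widest range of the 10 genes. *Tet2*+/+ samples had 16.6, 19.2 and 3.66 CPM in s19, s23 and s24, and *Tet2*-/- samples had 34.1, 3.02 and 45.7 CPM in s5, s7 and s8. The lowest sample was s7 and the highest s8, both *Tet2*-/-, 15.1-fold apart, and the next lowest was s24, a *Tet2*+/+ sample. The mean was 27.6 ± 22.1 CPM (SD, n = 3) against 13.2 ± 8.32 CPM (SD, n = 3), and the log2 fold change of 1.07 (SE 0.93, edgeR adjusted p = 0.815) was within the spread between samples. On length-scaled counts it was 0.40 with edgeR and 0.38 with DESeq2, and with limma on log2(TPM + 1) it was 0.21. That TPM value sums all transcripts, and over transcripts of at least 500 bases the difference in log2(TPM + 1) was 0.40. The edgeR log2 fold change on counts remained above 0 when any 1 sample was left out, between 0.50 without s8 and 1.60 without s7.

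*Osm* encodes oncostatin M, a ligand of the family that signals through gp130 paired with the OSM or LIF receptor chain and is made by neutrophils and macrophages (ENSMUSG00000058755, chromosome 11 from 4236420 to 4241026, plus strand). It had 78.0, 29.1 and 50.9 CPM in s19, s23 and s24, and 34.0, 159 and 15.4 CPM in s5, s7 and s8. Its order across samples was nearly the reverse of that of *Il6st*, with s7 highest and s8 lowest. The mean of 69.4 ± 78.0 CPM (SD, n = 3) in *Tet2*-/- samples rested on s7, and the mean in *Tet2*+/+ samples was 52.7 ± 24.5 CPM (SD, n = 3). The log2 fold change of 0.40 (SE 0.81, edgeR adjusted p = 0.929) went to -1.08 without s7.

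The SOCS family genes were expressed at low to moderate levels and also varied widely within genotypes. *Socs3*, whose protein binds gp130 and the G-CSF receptor and blocks their JAK kinases (ENSMUSG00000053113, chromosome 11 from 117966079 to 117970047, minus strand), had 14.6, 28.0 and 13.4 CPM in s19, s23 and s24 and 64.4, 15.9 and 15.1 CPM in s5, s7 and s8. Sample s5 stood above all others, and the remaining *Tet2*-/- samples lay within the *Tet2*+/+ range. Its log2 fold change was 0.77 (SE 0.62, edgeR adjusted p = 0.795), -0.27 without s5, and 0.38 on length-scaled counts.

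*Socs1*, an inhibitor of JAK kinases that is induced by interferon and by many other cytokines (ENSMUSG00000038037, chromosome 16 from 10782240 to 10785536, minus strand), had 8.43, 7.87 and 4.22 CPM in s19, s23 and s24 and 3.57, 22.1 and 3.80 CPM in s5, s7 and s8. Here s7 was far above the rest, while s5 and s8 were below every *Tet2*+/+ sample. Its log2 fold change of 0.51 (SE 0.75, edgeR adjusted p = 0.892) went to -0.89 without s7.

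*Cish*, a target of STAT5 whose product CIS damps cytokine receptors (ENSMUSG00000032578, chromosome 9 from 107296026 to 107302784, plus strand), had 5.14, 8.30 and 17.5 CPM in s19, s23 and s24 and 5.88, 21.7 and 2.01 CPM in s5, s7 and s8. Its high samples were s7 and s24, 1 of each genotype, the same samples that were lowest for *Il6st*. The log2 fold change was -0.06 (SE 0.84, edgeR adjusted p = 0.993), and lay between -1.37 without s7 and 0.55 without s24. *Cish* overlaps the antisense gene *Gm17041*, which had 0 to 2.19 CPM and was likewise highest in s7 and next in s24. The library kit does not mark strand, so reads of the shared 322 bases cannot be told apart.

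*Socs2*, a further STAT5 target best known as an inhibitor of growth hormone signaling (ENSMUSG00000020027, chromosome 10 from 95385362 to 95417180, minus strand), was the lowest of the group, with 1.97, 0.86 and 2.61 CPM in s19, s23 and s24 and 1.46, 1.16 and 0.49 CPM in s5, s7 and s8. These values rested on only 9 to 46 reads a sample. It was the only 1 of the 10 genes whose highest sample (s24) was *Tet2*+/+. Its log2 fold change of -0.79 (SE 0.60, edgeR adjusted p = 0.781) stayed negative without any 1 sample (-1.15 to -0.44). It was -0.26 on length-scaled counts with edgeR and with DESeq2, and -0.14 with limma on log2(TPM + 1). That TPM value sums all transcripts, and over transcripts of at least 500 bases the difference in log2(TPM + 1) was -0.29. A stretch of 599 bases of *Socs2* matched the gene *Gm9847* at 99.5% identity, so some of its reads could be assigned to either.

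To show where STAT factors could contact these genes, RefSeq promoters (GRCm38.p6, 250 bases before to 50 bases after a start site) were searched for the STAT consensus TTCNNNGAA, which is its own reverse complement. Entries matched 8 of the 10 genes by symbol (not *Osm* and *Socs2*), with 10 promoters in all, since *Bcl6* and *Pim1* have 2 each. Of the 10 promoters, 4 held the letters (those of *Cish* and *Socs3* and both of *Bcl6*), beside 8.30% of all 32851 promoters of that length. *Cish* held the motif 2 times within a few bases, with first bases at positions 1 and 12 counted from the start site, in an exon outside the coding sequence of the GENCODE model. *Socs3* held it 1 time, 154 bases before the start site and outside its exons. Windows of 30 bases are shown on the strand of the gene with the motif in capitals, first for *Cish* (chr9:107296649-107296678, plus strand) and then for *Socs3* (chr11:117969501-117969530, minus strand).
Cish: ccgcccagttTTCCTGGAAagTTCTTGGAA
Socs3: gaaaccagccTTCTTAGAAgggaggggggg

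The 3 remaining genes act in survival and differentiation. *Pim1* encodes a serine/threonine kinase that favors survival of cytokine-stimulated cells (ENSMUSG00000024014, chromosome 17 from 29490753 to 29496112, plus strand). It had 162, 283 and 177 CPM in s19, s23 and s24 and 436, 144 and 93.4 CPM in s5, s7 and s8. As for *Socs3*, s5 was highest and s23 second. *Tet2*-/- samples held both the highest and the lowest value, and the log2 fold change of 0.11 (SE 0.56, edgeR adjusted p = 0.980) went to -0.81 without s5. The antisense gene *Gm26885*, which shares 262 bases with *Pim1*, was at 5.35 to 11.7 CPM.

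*Pim2*, the closely related kinase (ENSMUSG00000031155, chromosome X from 7878262 to 7883432, plus strand), was the steadiest of the 10 genes. It had 7.96, 7.60 and 7.32 CPM in s19, s23 and s24 and 10.4, 6.49 and 8.14 CPM in s5, s7 and s8, a range of 1.61-fold. The log2 fold change was 0.13 (SE 0.27, edgeR adjusted p = 0.929), and its sign turned without s5 (-0.07).

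*Bcl6* encodes a transcriptional repressor that STAT factors regulate directly and that shapes lymphoid and myeloid differentiation (ENSMUSG00000022508, chromosome 16 from 23965052 to 23988852, minus strand). It had 46.7, 39.9 and 65.8 CPM in s19, s23 and s24 and 77.9, 99.3 and 50.8 CPM in s5, s7 and s8. Samples s5 and s7 were above all *Tet2*+/+ samples and s8 was among them. With a mean of 76.0 ± 24.3 CPM (SD, n = 3) against 50.8 ± 13.4 CPM (SD, n = 3), and its log2 fold change at 0.58 (SE 0.30), *Bcl6* came nearest to a difference, but it did not pass (edgeR adjusted p = 0.665, exact permutation p = 0.2). Its log2 fold change stayed above 0 without any 1 sample, from 0.34 to 0.81.

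*Bcl6* has 2 start regions in RefSeq, and both promoters held the STAT motif. The more distal held 1, 118 bases before its start site, and the other held 3, at 168, 122 and 88 bases before it. Among all 32851 promoters, 150 held the motif 2 or more times and 11 held it 3 or more times. The windows, on the minus strand, are chr16:23988951-23988980, chr16:23981432-23981461, chr16:23981386-23981415 and chr16:23981352-23981381, with the motif in capitals, and none lies in an exon of the gene.
Bcl6, distal, position -118: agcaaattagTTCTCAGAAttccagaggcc
Bcl6, position -168: aggccgcggcTTCCTGGAAagttacttctc
Bcl6, position -122: ggcaggagtgTTCTGTGAAatccttagagc
Bcl6, position -88: atcgactacgTTCCGGGAAtgagagggctg
A match of these letters is a description of the promoter only, and binding was not measured in these samples.

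**Figure D2:**
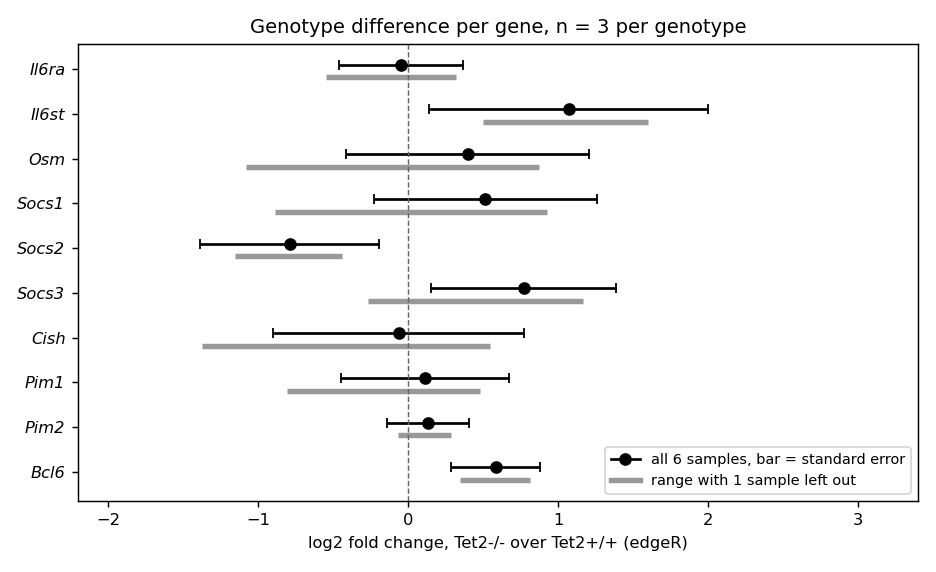
Log2 fold change of each of the 10 genes, *Tet2*-/- over *Tet2*+/+ (horizontal axis), from edgeR with all 6 samples (point, bar = standard error) and the range when each sample is left out in turn (gray). The gray range crosses 0 for *Il6ra*, *Osm*, *Socs1*, *Socs3*, *Cish*, *Pim1* and *Pim2*, and not for *Il6st*, *Socs2* and *Bcl6*.

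Compared per length, *Pim1* was the most abundant and *Socs2* the least. Levels are given as mean TPM over the 6 samples with the lowest and highest sample, summed over transcripts of at least 500 bases. *Pim1* was at 43.8 TPM (19.03 to 81.8), *Il6ra* at 21.5 TPM (13.9 to 33.9), *Osm* at 15.3 TPM (4.001 to 38.9) and *Bcl6* at 9.93 TPM (6.84 to 14.9). *Socs3* followed at 4.73 TPM (2.71 to 11.2) and *Pim2* at 2.43 TPM (1.96 to 2.84). The 4 lowest were *Il6st* at 1.68 TPM (0.22 to 3.79), *Socs1* at 1.51 TPM (0.61 to 3.80), *Cish* at 1.46 TPM (0.33 to 3.05) and *Socs2* at 0.60 TPM (0.21 to 1.27). Every gene overlapped its neighbor in this order, so no 2 neighbors were separated. The receptor chain that binds IL-6 was thus 1 of the more abundant transcripts of the group and the shared signaling chain 1 of the less abundant.

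The restriction to longer transcripts mattered for several genes. The deposited TPM divide reads by effective length, and a few reads assigned to a very short transcript can outweigh the rest of a gene. Transcripts under 500 bases held 42.0% to 97.4% of the summed TPM of *Il6st* on 0.88 to 14.8 estimated reads, 62.9% to 84.8% of that of *Socs3*, and 62.7% to 81.4% of that of *Cish*. With them, *Il6st* would stand at 11.7 TPM in place of 1.68 TPM, and *Socs3* at 24.03 TPM in place of 4.73 TPM. *Il6ra*, *Osm*, *Socs1*, *Pim1* and *Bcl6* had no such transcript with reads.

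Among genes with more than 1 main transcript, *Il6st* was where the genotypes separated. Its reads were split mainly between Il6st-203 (17 exons, 8678 bases) and Il6st-201 (15 exons, 5207 bases), which have the same coding exons. Il6st-203 begins 10938 bases upstream, ends 3226 bases downstream, and has 5644 bases of 3′ UTR in place of 2418 bases. Il6st-203 held 38.9%, 52.5% and 54.7% of the *Il6st* reads in s19, s23 and s24 and 67.6%, 76.3% and 63.8% in s5, s7 and s8. All 3 *Tet2*-/- samples were above all 3 *Tet2*+/+ samples, with 69.2% ± 6.38 (SD, n = 3) against 48.7% ± 8.55 (SD, n = 3) and the smallest two-sided exact permutation p the design allows, 0.1. The shares of s24 and s7 rest on 52 and 47 reads of the gene, with 95% Wilson intervals of 40.5% to 66.7% and 62.8% to 86.4% that cover counting error only. The difference of 20.5 percentage points lay between 15.6 and 23.5 when any 1 sample was left out. It was 1 of 5 genes with at least 2 transcripts of 5% or more of the reads, and such separation was seen for 13.1% of all genes of that kind. Reads in the shared exons are divided between the transcripts by Salmon's model, so the shares are estimates.

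For the other genes with several main transcripts the genotypes overlapped. *Il6ra* reads were split between Il6ra-202 and Il6ra-201, which differ mainly in the 3′ UTR (7105 bases and 1840 bases), and Il6ra-202 held a steady 52.6% to 56.9% in all 6 samples. *Pim1*, *Pim2*, *Bcl6*, *Osm* and *Socs3* each had 1 transcript with at least 88.2% of the reads in every sample. That of *Osm* also separated the genotypes, but within a range of 97.7% to 99.4%. For *Socs1*, *Socs2* and *Cish* the division jumped between samples, with Cish-201 holding 55.7% in s19, 79.7% in s8 and 0% in the other 4, and it was not read further.

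**Figure D3:**
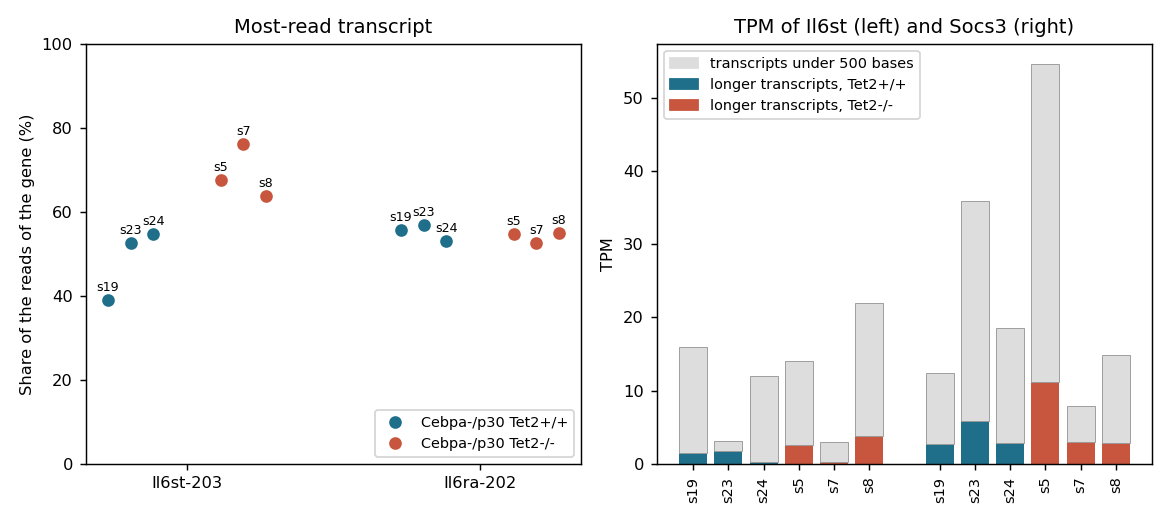
Left, share of the reads of the gene (%) held by Il6st-203 and Il6ra-202 in each sample; right, TPM of *Il6st* and *Socs3* per sample, stacked from transcripts of at least 500 bases (colored by genotype) and shorter ones (gray). Il6st-203 lies between 38.9% and 54.7% in *Tet2*+/+ and between 63.8% and 76.3% in *Tet2*-/- samples, Il6ra-202 is steady, and the gray part makes up most of the bars other than *Il6st* in s23.

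Most of the 10 genes spread widely between samples of a genotype. The BCV of the gene was above the trend for genes of its level in 8 of 10 (all but *Socs2* and *Pim2*), beside 24.6% of genes averaging 1 CPM or more. It was highest for *Il6st* (76.3%, with a trend of 36.0%), *Cish* (71.2%, trend 43.8%), *Osm* (66.8%, trend 28.7%) and *Socs1* (65.0%, trend 46.6%), and *Bcl6* was barely above its trend (29.0% and 28.6%). The median BCV was 53.5% for the 10 genes and 31.3% for all genes averaging 1 CPM or more.

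The spread was larger among *Tet2*-/- samples. The SD of log2(CPM + 1) was larger in *Tet2*-/- than in *Tet2*+/+ samples for 9 of 10 genes (all but *Socs2*), but this also held for 69.3% of all genes averaging 1 CPM or more. The median SD was 1.14 in *Tet2*-/- and 0.52 in *Tet2*+/+ samples for the 10 genes, and 0.34 and 0.23 over all genes. Without s7 the count was 8 of 10 while the share over all genes fell to 44.1%, and without s8 it was 7 of 10 beside 60.04%. The highest of the 6 samples was *Tet2*-/- for 9 of 10 genes (63.6% of all genes), and both the highest and the lowest were *Tet2*-/- for 7 of 10 (29.8% of all genes). These extremes fell to different mice. Sample s7 was highest for *Osm*, *Socs1*, *Cish* and *Bcl6* and lowest for *Il6ra*, *Il6st* and *Pim2*. Sample s5 was highest for *Socs3*, *Pim1* and *Pim2*, and s8 was highest for *Il6ra* and *Il6st* and lowest for *Osm*, *Socs2*, *Cish* and *Pim1*. Of the feedback targets, *Socs3* and *Pim1* thus had their highest value in another sample than *Socs1* and *Cish*.

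**Figure D4:**
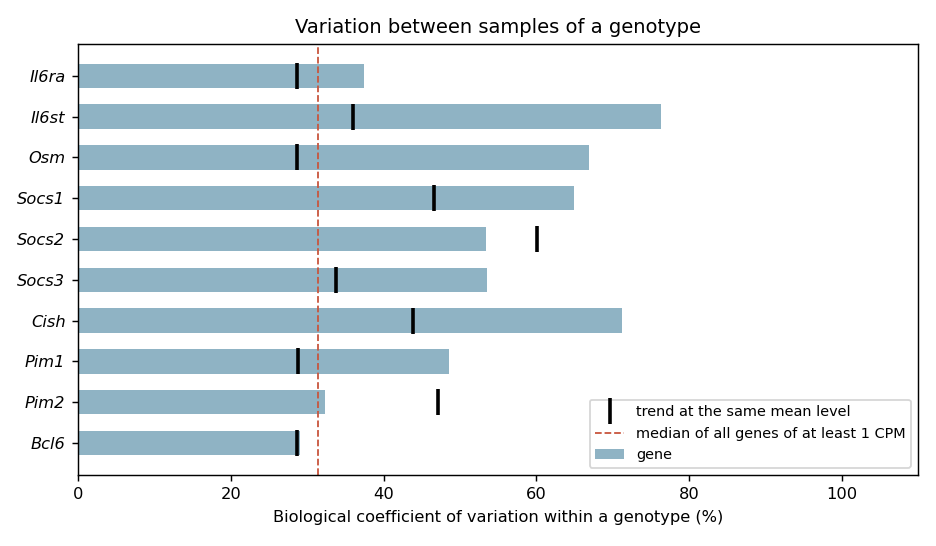
BCV within a genotype (horizontal axis, %) of each of the 10 genes (bars from 0), with the trend for genes of the same mean level (black ticks) and the median of all genes of at least 1 CPM (dashed, 31.3%). Bars reach past the tick for 8 of 10 genes, and *Socs2* and *Pim2* fall short of it.

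Of the 10 genes, *Il6st* rose with markers of monocytes and macrophages. Each gene, as log2(CPM + 1), was correlated over the 6 samples with the mean log2(CPM + 1) of the neutrophil and the monocyte marker lists, 20 relations in all. The other marker lists were not correlated with the genes. Among them, only the dendritic cell and B cell sums were lowest in s7 and s24, the samples also lowest for *Il6st*. *Il6st* followed the monocyte and macrophage list (10 of 10 markers detected, such as *Csf1r* and *Ccr2*), with the same order of all 6 samples. Its Pearson's r was 0.96 (exact permutation p = 0.00139, the smallest possible, 0.0278 after Benjamini-Hochberg adjustment) and its Spearman's rho was 1 (exact permutation p = 0.00278, adjusted 0.0556). The r was 0.89 without s7 and s8, the samples farthest from the median of the list, and 0.95 for deviations from the genotype means. With the neutrophil list *Il6st* had r = -0.50 and rho = -0.49 (exact permutation p = 0.301 and 0.356, adjusted 0.502 and 0.646; r = -0.19 without s23 and s7). The monocyte relation was the only 1 of the 20 relations below an adjusted p of 0.05, and only by Pearson's r. An r at least as high with the same list was found for 1.85% of the 13829 genes averaging 1 CPM or more outside it (256 genes).

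The other relations missed that threshold. *Osm* ran against the monocyte list (r = -0.93, rho = -0.89, exact permutation p = 0.0111 and 0.0333, adjusted 0.0926 and 0.167; r = -0.74 without s7 and s8). *Cish* did so too (r = -0.87, rho = -0.83, exact permutation p = 0.0264 and 0.0583, adjusted 0.132 and 0.194; r = -0.60 without s7 and s8). *Il6ra* ran against the neutrophil list (r = -0.89, rho = -0.89, exact permutation p = 0.0139 and 0.0333, adjusted 0.0926 and 0.167; r = -0.93 without s23 and s7). *Bcl6* rose with the neutrophil list (r = 0.84, rho = 0.83, exact permutation p = 0.0333 and 0.0583, adjusted 0.133 and 0.194), a relation that rested on s23 and s7, since r was 0.36 without them. *Pim2* and the monocyte list had r = 0.67 and rho = 0.89 (exact permutation p = 0.124 and 0.0333, adjusted 0.326 and 0.167; r = 0.63 without s7 and s8). For *Socs3* and *Pim1* the r with either list lay between -0.04 and 0.45. Without s7 and s8 it was 0.88 for both with the monocyte list, and without s23 and s7 it was 0.52 for *Socs3* and 0.81 for *Pim1* with the neutrophil list. The part of differing cell composition in these levels was not tested.

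**Figure D5:**
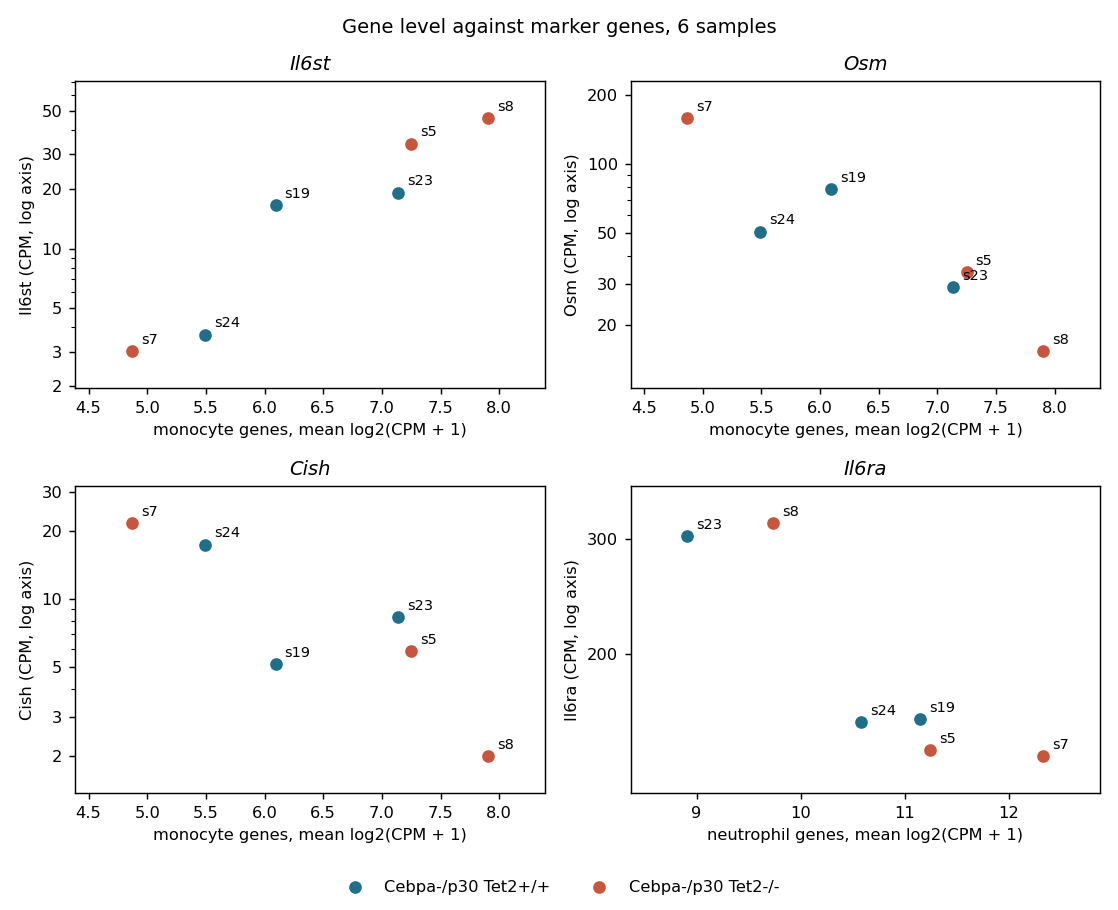
Level of *Il6st*, *Osm* and *Cish* (CPM, log axes) against the mean log2(CPM + 1) of 10 monocyte and macrophage genes, and of *Il6ra* against that of 10 mature neutrophil genes, 1 point per sample, colored by genotype. *Il6st* increases with the monocyte genes through samples of both genotypes, while *Osm* and *Cish* are highest in s7, where the mean log2 level of the monocyte genes is lowest.

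The genes whose pattern over the 6 samples was most like that of 3 targets differed between the targets. Likeness was taken as Pearson's r of log2(CPM + 1), among 9820 protein-coding genes averaging 5 CPM or more. The genes with the highest r with *Socs3* were *Tmem176a* (0.99), *Cntrob* (0.98) and *Znhit2* (0.97). For *Pim1* they were *Hes6* (0.99), *Pik3ip1* (0.99) and *Acd* (0.98), and for *Cish* they were *Hace1* (0.99), *Nudt7* (0.99) and *Tbcel* (0.99). No gene was shared among the 3 lists. With 6 samples and this many genes, high values of r are found for many genes, and the values are descriptions.

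The wider pathway also showed no gene past the threshold with edgeR. Among other ligands of the family, 8 of 10 were tested (not *Ctf1* and *Il31*), 4 with a log2 fold change above 0 and 4 below, and the median was 0.02. *Il6* was close to silent, with 16, 0 and 3 reads in s19, s23 and s24 and 4, 5 and 3 reads in s5, s7 and s8, and the 0 in s23 allows up to 0.161 CPM. Among ligands averaging 1 CPM or more, the extremes were *Clcf1*, a ligand of the CNTF receptor (log2 fold change -0.41, SE 0.35), and *Il27*, a subunit of interleukin-27 (0.57, SE 0.55). Of 7 other receptor chains and partners, 5 were tested, with a median of -0.32, and between -0.79 (without s5) and -0.25 (without s7) when any 1 sample was left out. *Il27ra*, the interleukin-27 receptor chain that pairs with gp130, had 4.61, 3.16 and 3.31 CPM in s19, s23 and s24 and 2.25, 2.31 and 1.95 CPM in s5, s7 and s8. Its genotypes did not overlap, but the log2 fold change of -0.76 (SE 0.35) did not pass (edgeR adjusted p = 0.638). *Lifr*, the LIF receptor chain, had 11.2, 53.9 and 4.08 CPM in s19, s23 and s24 and 57.8, 3.66 and 58.0 CPM in s5, s7 and s8, lowest in s7 and s24 like *Il6st*.

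All 11 JAK kinases and STAT factors were tested. Their median log2 fold change was 0.19, and *Stat2*, a partner in interferon signaling, was the most negative (-0.15, SE 0.16). Among 15 other negative regulators of the pathway (median 0.14), 2 were higher at an unadjusted edgeR p of 0.05, beside 3% of all genes tested. *Ptpn1*, which encodes the phosphatase PTP1B that dephosphorylates JAK kinases, had 163, 170 and 147 CPM in s19, s23 and s24 and 268, 251 and 214 CPM in s5, s7 and s8, with a log2 fold change of 0.61 (SE 0.17, edgeR adjusted p = 0.456). DESeq2 called it (adjusted p = 0.0356), but not on length-scaled counts. At the other end, *Socs6* had a log2 fold change of -0.45 (SE 0.22, edgeR adjusted p = 0.654).

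Of 18 other STAT3 and STAT5 targets, 15 had a log2 fold change above 0 and the median was 0.44, beside 55.7% above 0 and a median of 0.05 over genes averaging 1 CPM or more. None passed with edgeR, and 2 were higher at an unadjusted p of 0.05, beside 3% of all genes tested. Mitochondrial genes held 2.7%, 3.4% and 3.3% of the reads in s19, s23 and s24 and 2.0%, 1.8% and 2.6% in s5, s7 and s8, and the 10 most abundant genes held 12.4% in s7 and 5.18% to 9.82% in the other 5. The log2 fold change was also above 0 for 10 of 10 mature neutrophil markers (median 0.92) and 9 of 10 monocyte and macrophage markers (median 0.89), and the part of these differences between libraries in the values of the targets was not tested. *Bcl3*, which encodes a nuclear partner of NF-κB, was the most positive (1.15, SE 0.54, edgeR adjusted p = 0.647). It had 53.8 CPM in s5, the sample highest for *Socs3* and *Pim1*, and 9.15 to 23.9 CPM in the other 5. *Myc* was the most negative, at -0.52 (SE 0.32, edgeR adjusted p = 0.722). Of 17 other JAK-coupled receptors of myeloid cells (median 0.28, and 0.028 without s8), *Il4ra* was the most positive of the 15 averaging 1 CPM or more (0.71, SE 0.31, edgeR adjusted p = 0.623). *Il5ra*, the interleukin-5 receptor chain of eosinophils and their precursors, had 8.43, 22.01 and 12.1 CPM in s19, s23 and s24 and 2.50, 4.69 and 1.74 CPM in s5, s7 and s8. With a log2 fold change of -2.26 (SE 0.51), it did not pass with edgeR (adjusted p = 0.318), and DESeq2 called it (adjusted p = 0.00264, and 0.0112 on length-scaled counts). Of 7 eosinophil markers tested, *Il5ra* among them, 6 were below 0, their summed level was 289 to 346 CPM in *Tet2*+/+ and 145 to 373 CPM in *Tet2*-/- samples, and the part of such cells in this difference was not tested.

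Genes that respond to handling and to interferon were also examined, and 0 passed with edgeR. The 12 immediate early genes, which rise within minutes of stimulation or cell stress, had a median log2 fold change of 0.32, and -0.26 without s7. Their summed level was 6506 CPM in s7, the sample highest for *Socs1* and *Cish*, and 2279 to 3725 CPM in the other 5. The part of sample handling in the levels of the 10 genes was not tested. *Egr1* (-0.58, SE 0.63) and *Ier3* (0.64, SE 0.47) marked the ends of that list. Of 12 interferon-stimulated genes, 10 were below 0, with a median of -0.46, beside 55.7% of genes averaging 1 CPM or more above 0. At an unadjusted edgeR p of 0.05, 2 of the 12 were lower, beside 5.12% of all genes tested. *Ifit3* had 3.71, 7.82 and 7.46 CPM in s19, s23 and s24 and 1.65, 2.51 and 2.82 CPM in s5, s7 and s8 (log2 fold change -1.45, SE 0.42, edgeR adjusted p = 0.491), whereas *Cxcl10* was at 0.13 (SE 0.40). The pattern of *Socs1*, an interferon target that was highest in s7, differed from that of *Ifit3*, which was lower in all 3 *Tet2*-/- samples than in any *Tet2*+/+ sample.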

How the data were processed

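RNA from AML blasts of 3 *Cebpa*-/p30 *Tet2*+/+ and 3 *Cebpa*-/p30 *Tet2*-/- samples was made into unstranded TruSeq libraries, and the authors quantified reads with Salmon 0.12.0 (per the submitters' processing notes, on GRCm38.p6). The deposited values are estimated counts per transcript, not normalized between samples. The deposited TPM divide reads by effective length and sum to an equal total in each sample.

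Estimated counts of 136288 transcripts were summed to GENCODE M21 genes (112 transcripts had none) and rounded, with Python 3.11.15 and pandas 2.3.3. Genes with a library-size-normalized sum of at least 10 entered edgeR 4.0.16 (R 4.3.3; quasi-likelihood fit and F test), with TMM factors, no covariates and Benjamini-Hochberg adjustment. SEs were obtained as |log2 fold change| over √F. Single values were compared with two-sided exact permutation tests (scipy 1.17.1). Alternatives were DESeq2 1.42.0, length-scaled counts (with DESeq2, the test of the study's methods), other scaling and filters, limma 3.58.1 on log2 TPM, and leaving out each sample. Shared sequence was sought with BLAST+ 2.17.0 at 95% identity or more, and figures were drawn with matplotlib 3.10.9. Scripts were tested on simulated data.

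The 10 genes and all gene lists were chosen with earlier results of these data known. Besides the 10 genes, *Tet2*, *Cebpa* and *Il6*, the genes named are those called by edgeR in a list (there were none), the most negative and most positive of each list averaging 1 CPM or more, and the 3 most like *Socs3*, *Cish* and *Pim1*. Some items these rules would name are not reported here. *Cebpa* had a log2 fold change of -0.80 (SE 0.35, edgeR adjusted p = 0.632). Overlapping antisense genes were named after their values were seen. Depth was 13036643 to 32855343 reads, which leaves genes near 1 CPM with few reads a sample (9 to 46 for *Socs2*). No batch is given in the labels.

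Marker lists not described with the results are given as summed CPM, for *Tet2*+/+ and then for *Tet2*-/- samples. Basophil and mast cell markers (6 of 9 tested) were at 414 to 505 and 175 to 364, and plasma cell markers (8 genes) at 278 to 380 and 200 to 360. Megakaryocyte and platelet markers (5 of 6 tested) were at 26.3 to 49.1 and 12.9 to 27.8, and dendritic cell markers (8 genes) at 134 to 303 and 117 to 287. The part of such cells in the levels of the 10 genes was not tested.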

Additional observations from a re-analysis of the deposited data

How the results depend on the processing

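No paired analysis was possible because the genotypes share no replicate numbers. Of 160 values of the 10 genes under alternative settings, 137 kept their direction and 23 changed sign, and no gene passed the threshold under any of them (lowest adjusted p 0.509, edgeR, DESeq2 or limma). The cause of the sign changes was not tested. With length-scaled counts the log2 fold change of *Cish* was 0.10 with edgeR and 0.12 with DESeq2. With library size only, which moved the median of all genes by -0.17, *Pim1* was at -0.066 and *Pim2* at -0.029. With limma on log2(TPM + 1) *Osm* was at -0.19, *Socs3* at -0.10 and *Pim1* at -0.28. On log2(TPM + 0.1) *Osm* was at -0.24, *Socs1* at -0.081, *Socs3* at -0.11 and *Pim1* at -0.29. These TPM values sum all transcripts of a gene. Outside the 160 values, the difference in log2(TPM + 1) was also taken over transcripts of at least 500 bases. It was 0.31 for *Socs3*, and still -0.19 for *Osm* and -0.28 for *Pim1*. Leaving out each sample moved *Il6ra* between -0.55 and 0.32, *Osm* between -1.08 and 0.87, *Socs1* between -0.89 and 0.93, *Socs3* between -0.27 and 1.17, *Cish* between -1.37 and 0.55, *Pim1* between -0.81 and 0.48, and *Pim2* between -0.068 and 0.29.

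Over all genes, edgeR called 10 lower and 0 higher. The counts lower and higher were 326 and 59 with DESeq2, 322 and 64 with DESeq2 on length-scaled counts, and 62 and 4 with no filter. Length-scaled counts with edgeR gave 5 lower, RLE factors and filterByExpr gave 1 higher each, and leaving out a sample gave 0 to 7 lower. DESeq2 called 1 gene in the list of negative regulators and 1 among the JAK-coupled receptors, and on length-scaled counts 1 among the receptors. With library size only the median was -0.13 for ligands, -0.51 for receptor chains, 0.0020 for JAK and STAT genes, -0.042 for negative regulators and 0.27 for STAT targets, and with filterByExpr it was 0.29 for ligands.
Without each sample in turn the median lay between -0.15 and 0.55 for ligands, -0.79 and -0.25 for receptor chains, 0.037 and 0.25 for JAK and STAT genes, 0.027 and 0.29 for negative regulators, 0.38 and 0.54 for STAT targets, 0.028 and 0.35 for receptors, -0.26 and 0.61 for immediate early genes, and -0.65 and -0.30 for interferon-stimulated genes. The number of genes with a larger SD in *Tet2*-/- samples was 7 to 10, and the Il6st-203 difference was 15.6 to 23.5 percentage points. At 9 to 46 reads a sample, depth limits *Socs2* most.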
